A study of Homo sapiens with 12 samples.

Results

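Noggin (NOG), the bone morphogenetic protein (BMP) ligands BMP2, BMP4 and BMP7, the pathway inhibitors BAMBI and SMAD6, and the genes ID1, ID2, ID3 and ID4 were described as 1 set of 10 genes among the 26475 gene symbols with expected counts. All 10 were found by their symbols. They were picked by name when results of these data on the response to BAY-850 were already known, so their values are given as a description, without p-values. RNA was sequenced from the human cell lines PA-1, from an ovarian teratocarcinoma, and SK-OV3, from an ovarian adenocarcinoma. Each line was treated for 48 h with 5 µM BAY-850, a small molecule that keeps the bromodomain protein ATAD2 from binding acetylated histones, or with the vehicle DMSO. The 4 groups are thus PA-1 with DMSO, PA-1 with BAY-850, SK-OV3 with DMSO and SK-OV3 with BAY-850, each with 3 biological replicates, which makes 12 libraries. Each tumor type is represented by a single established line, and PA-1 cells were kept in DMEM and SK-OV3 cells in RPMI medium, so that line and medium cannot be told apart.

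BMP ligands are secreted dimers that bring type I and type II receptor kinases together at the cell surface. The active receptors phosphorylate SMAD1, SMAD5 and SMAD9, which join SMAD4, enter the nucleus and bind near target genes. Noggin binds BMP ligands outside the cell and blocks their contact with the receptors. The ID genes are among the best known direct targets of this pathway, and their proteins, which have no DNA-binding region of their own, pair with basic helix-loop-helix factors such as TCF3 and hold them away from DNA. SMAD6 and BAMBI, a receptor-like protein without a kinase, are themselves induced by BMP signals and dampen them.

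The total expected count per library lay between 34544505 and 51840233. BAY-850 replicate 3 of SK-OV3 stood apart. It had the highest total but only 15629 genes with a count, against 17425 to 18414 in the other libraries, and 1750 of the 16830 genes tested over all libraries were at 0 in it, against 597 to 853 elsewhere. Where a result rests on this library, its value without the library is also given. The labels of the lines were checked against markers. The embryonal markers POU5F1, SOX2, LIN28B and SALL4 reached means of 409, 224, 54.8 and 21.4 CPM (counts scaled to the size of each library, with edgeR's TMM correction for library composition) in PA-1 with DMSO, against at most 6.74 CPM in SK-OV3 with DMSO, whereas TDGF1 and DPPA4 were low in PA-1 at 0.0660 and 1.80 CPM. KRT7, KRT19, ERBB2 and PAX8, markers of epithelial adenocarcinoma, reached 439.7, 526, 2417 and 223 CPM in SK-OV3 with DMSO, against 0.103, 15.7, 61.3 and 0.369 CPM in PA-1, and KRT8 and KRT18 were high in both lines. Of the markers of other cells, PTPRC, CD3E, CD14, MYH7 and HBB stayed at or below 0.249 CPM on average in every group, and the endothelial genes PECAM1 and CDH5 reached 23.6 and 9.13 CPM in PA-1. In RNA from whole cultures, fewer cells that express a gene and less RNA per cell cannot be told apart.

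The 2 lines differed in the level of every one of the 10 genes before any inhibitor was added. Levels between genes are compared per kilobase of exon (CPM per kb, exon lengths from GENCODE release 29 of GRCh38). In PA-1 with DMSO, the order was ID4 at 165 ± 3.12 CPM per kb (SD, n = 3), ID1 at 77.3 ± 4.55, ID3 at 29.2 ± 1.27, BAMBI at 25.7 ± 1.14, ID2 at 22.0 ± 0.723, BMP4 at 14.2 ± 1.10, NOG at 7.08 ± 0.616, BMP7 at 2.46 ± 0.104, BMP2 at 1.19 ± 0.0934 and SMAD6 at 1.14 ± 0.174. The last pair did not differ beyond their spread. In SK-OV3 with DMSO, the order was ID1 at 275 ± 16.4 CPM per kb, ID4 at 64.1 ± 1.10, ID3 at 61.1 ± 4.21, ID2 at 24.8 ± 0.480, BAMBI at 10.4 ± 0.984, SMAD6 at 7.02 ± 0.612, BMP2 at 2.90 ± 0.145, NOG at 1.42 ± 0.192, BMP4 at 0.920 ± 0.220 and BMP7 at 0.0468 ± 0.0147. Here ID4 and ID3 did not differ beyond their spread. Among the ligands of the set, the leading one was BMP4 in PA-1 and BMP2 in SK-OV3. Outside the set, the ligand GDF6 stood at 3.29 ± 0.183 CPM per kb in SK-OV3 with DMSO, above BMP2. The leading ID gene was ID4 in PA-1 and ID1 in SK-OV3. Against 16264 genes with a known length, ID4 stood above 98.4% in PA-1 with DMSO, and ID1 stood above 99.2% in SK-OV3 with DMSO.

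**Figure D1:**
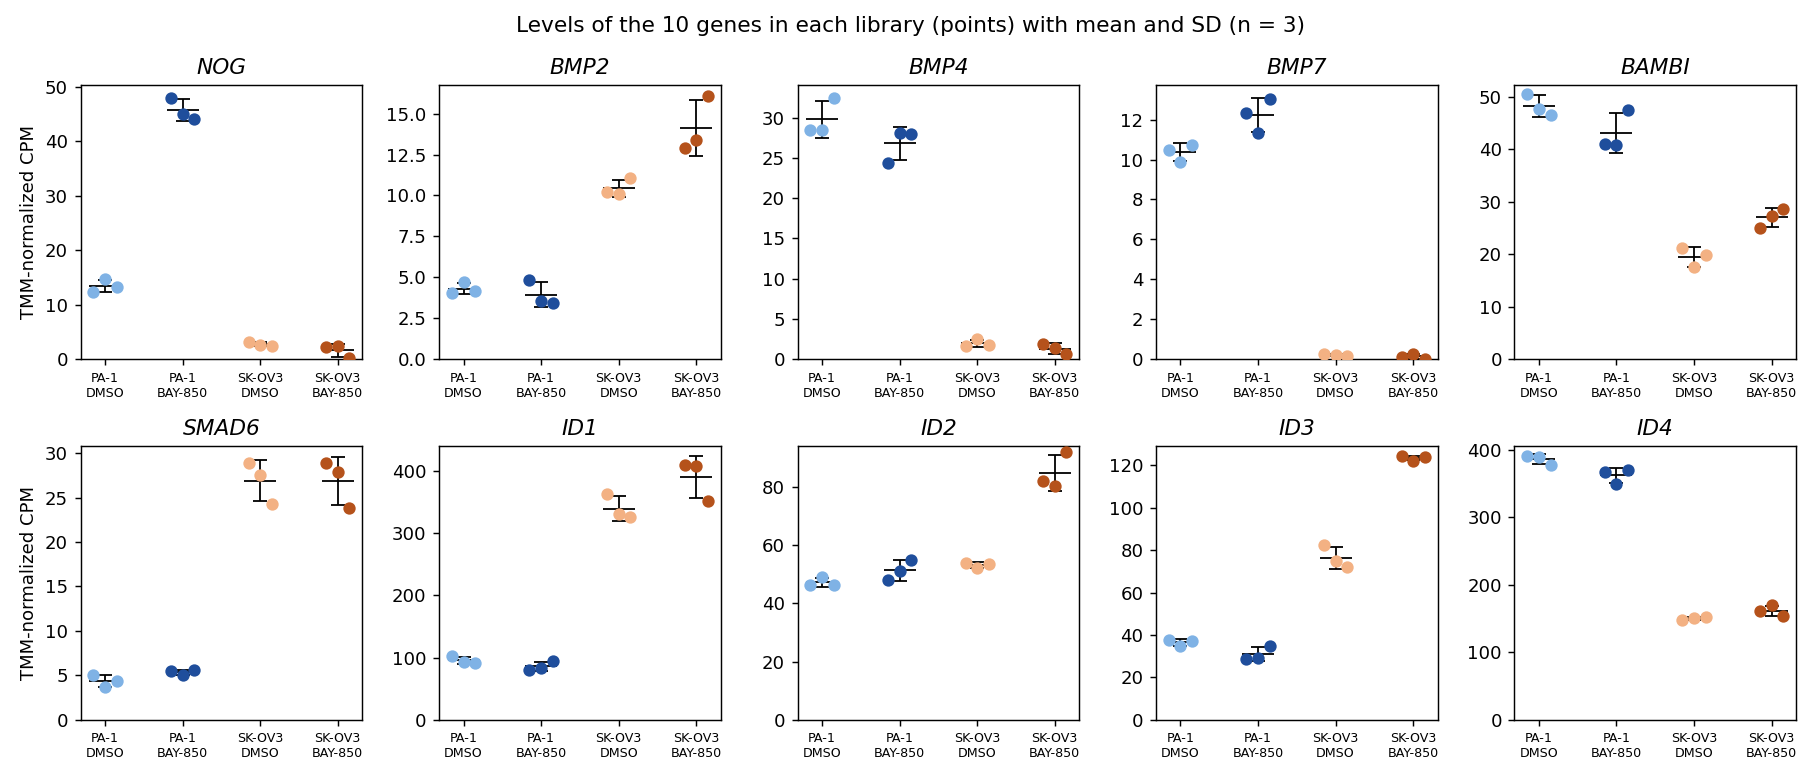
Level of each of the 10 genes in TMM-normalized CPM (vertical axes, linear, each from 0) in PA-1 (blue) and SK-OV3 (orange), with DMSO (light) and BAY-850 (dark). Points are libraries and bars are the mean and SD of 3 libraries. NOG stands above the other groups in PA-1 with BAY-850, where its libraries lie between 44.2 and 48.0 CPM, and SK-OV3 with BAY-850 holds the highest ID2 and ID3 levels.

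Expressed as the log2 fold change of PA-1 over SK-OV3 with DMSO, 5 genes were higher in PA-1 and 5 were lower, and the 3 libraries of a line did not overlap with those of the other line for any of the 10. The same held for 82.3% of 16070 genes tested in this comparison, so nothing is read from that count. BMP7 differed by 5.69 (standard error 0.251), BMP4 by 3.95 (0.154), NOG by 2.32 (0.159), ID4 by 1.37 (0.0495) and BAMBI by 1.31 (0.0846) in favor of PA-1. SMAD6 differed by -2.62 (0.132), ID1 by -1.83 (0.0645), BMP2 by -1.28 (0.145), ID3 by -1.06 (0.0702) and ID2 by -0.17 (0.0612), with the higher level in SK-OV3. BMP7 in SK-OV3 rested on 5 to 10 counts per library, so its fold change is imprecise.

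NOG lies on chromosome 17 as a single exon of 1892 bases on the forward strand (chr17:56593699-56595590, GRCh38). In PA-1, it stood at 12.3, 14.6 and 13.3 CPM in the DMSO libraries and at 48.0, 45.1 and 44.2 CPM in the BAY-850 libraries. Every BAY-850 library lay above every DMSO library, with a gap wider than the spread within either group. The group means were 13.4 ± 1.16 CPM (SD, n = 3) and 45.7 ± 1.99 CPM. The log2 fold change was 1.77 with a standard error of 0.0806, or 3.41-fold. Among the 13498 genes tested in PA-1 with a mean of at least 1 CPM in either group, the log2 fold change of NOG ranked 15th from the top. Its level per kilobase moved from above 59.4% of genes with DMSO to above 85.2% with BAY-850.

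In SK-OV3, NOG was scarce, and its mean with BAY-850 was pulled down by 1 library. It stood at 3.09, 2.54 and 2.41 CPM with DMSO (123, 96 and 93 counts) and at 2.24, 2.37 and 0.279 CPM with BAY-850 (91, 100 and 15 counts). The BAY-850 libraries lay below the DMSO libraries, by a narrow margin for replicates 1 and 2, whereas replicate 3, the library that stood apart, was far lower. The log2 fold change was -0.73 (standard error 0.571) with that library and -0.22 without it. The order of the 4 groups by NOG level was PA-1 with BAY-850, PA-1 with DMSO, SK-OV3 with DMSO and SK-OV3 with BAY-850, and the latter 2 groups did not differ beyond their spread.

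**Figure D2:**
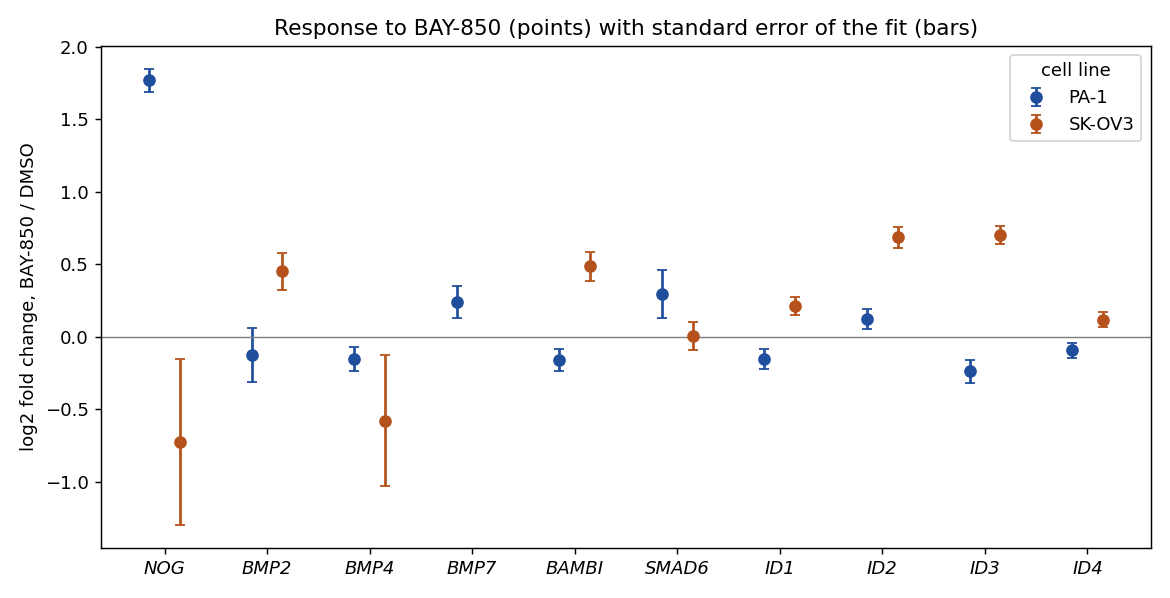
Log2 fold change of BAY-850 over DMSO (vertical axis) for each of the 10 genes in PA-1 (blue) and SK-OV3 (orange). Points are the fitted values and bars are the standard errors of the fit, and BMP7 in SK-OV3 has no point because its counts were too low for the fit. NOG in PA-1 stands apart at 1.77, and ID3 lies at -0.24 in PA-1 and at 0.70 in SK-OV3.

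The ligands did not share one pattern. BMP4 (chr14:53949736-53958761, reverse strand), the most abundant of the 3 ligands in PA-1, stood at 28.5, 28.5 and 32.5 CPM with DMSO and at 24.4, 28.1 and 28.0 CPM with BAY-850 in that line. The libraries were separated by a margin smaller than the spread within a group, and the log2 fold change was -0.15 (standard error 0.0834). In SK-OV3, BMP4 stood at 1.58, 2.46 and 1.76 CPM with DMSO and at 1.92, 1.37 and 0.596 CPM with BAY-850. The groups overlapped, and the log2 fold change of -0.58 (0.449) became -0.23 without BAY-850 replicate 3.

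BMP2 (chr20:6767664-6780280, forward strand), which with BMP4 belongs to the closest pair of relatives among the ligands, stood at 4.05, 4.68 and 4.16 CPM in PA-1 with DMSO and at 4.85, 3.56 and 3.42 CPM with BAY-850. The groups overlapped, with a log2 fold change of -0.12 (0.187). In SK-OV3, it stood at 10.2, 10.1 and 11.0 CPM with DMSO and at 12.9, 13.4 and 16.1 CPM with BAY-850. The BAY-850 libraries were all higher, with a log2 fold change of 0.45 (0.129), which was 0.33 without BAY-850 replicate 3. BMP7 (chr20:57168748-57266629, reverse strand) stood at 10.5, 9.89 and 10.8 CPM in PA-1 with DMSO and at 12.3, 11.3 and 13.0 CPM with BAY-850. The BAY-850 libraries were higher without overlap, with a log2 fold change of 0.24 (0.109). In SK-OV3, BMP7 had 10, 8 and 5 counts with DMSO and 5, 11 and 0 counts with BAY-850, too few for the filter on low counts, and no fold change is given. An antisense gene, BMP7-AS1, overlaps BMP7, and whether counting used the strand is not given in the sources used here.

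To set the antagonist against its ligands, the NOG level per kilobase was divided by the summed level of BMP2, BMP4 and BMP7 per kilobase in each library. In PA-1, this ratio was 0.379, 0.449 and 0.367 with DMSO and 1.60, 1.40 and 1.35 with BAY-850. NOG RNA thus lay below the ligand sum in every DMSO library and above it in every BAY-850 library. The means were 0.398 ± 0.0446 (SD, n = 3) and 1.45 ± 0.132, while the ligand sum itself was 17.8 ± 1.15 and 16.7 ± 0.767 CPM per kb. In SK-OV3, the ratio was 0.448, 0.334 and 0.324 with DMSO and 0.261, 0.283 and 0.0310 with BAY-850, the last value again from replicate 3. With DMSO, the ratio to these 3 ligands did not differ between the lines beyond its spread, although their sum was 3.87 ± 0.194 CPM per kb in SK-OV3. Other ligands are left out of the sum, and the ratio was not computed with them. Among these, GDF6 stood at 3.29 CPM per kb in SK-OV3 and 0.0860 in PA-1 with DMSO, and BMP8A at 1.15 and 2.35, in the same order. RNA levels say nothing of the amount of protein that is secreted.

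**Figure D3:**
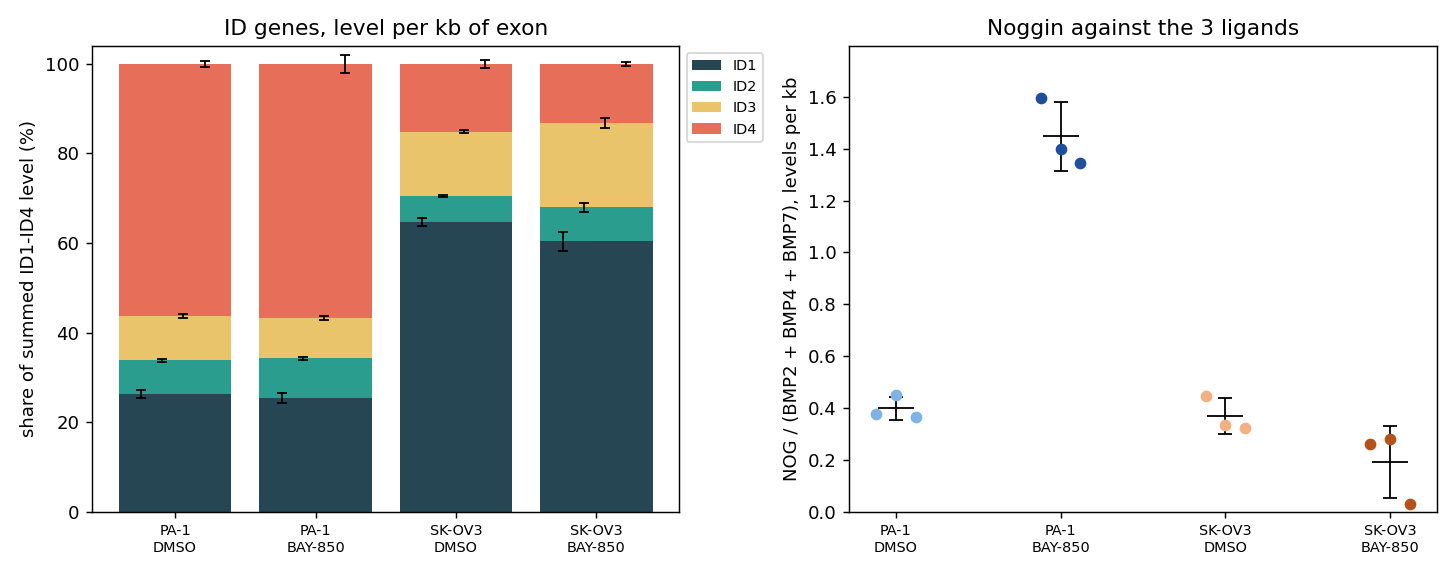
Left, the share (percent) of each ID gene in the summed ID1 to ID4 level per kilobase in the 4 groups, as stacked means with error bars of 1 SD (n = 3). Right, the ratio of the NOG level to the summed level of BMP2, BMP4 and BMP7 per kilobase, with points for libraries and bars for mean and SD. ID4 takes 56.2% in PA-1 with DMSO and ID1 takes 64.7% in SK-OV3 with DMSO, and the ratio exceeds 1 only in the 3 BAY-850 libraries of PA-1.

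Of the inhibitors inside the cell and at its surface, BAMBI (chr10:28677342-28682939, forward strand) stood at 50.6, 47.6 and 46.4 CPM in PA-1 with DMSO and at 40.9, 40.8 and 47.5 CPM with BAY-850. The groups overlapped through BAY-850 replicate 3, and the log2 fold change was -0.16 (0.0738). In SK-OV3, BAMBI stood at 21.2, 17.5 and 19.8 CPM with DMSO and at 25.0, 27.3 and 28.7 CPM with BAY-850. All BAY-850 libraries were higher, with a log2 fold change of 0.49 (0.102). SMAD6 (chr15:66702228-66782848, forward strand), which blocks receptor-regulated SMADs, stood at 5.06, 3.73 and 4.33 CPM in PA-1 with DMSO and at 5.46, 5.03 and 5.55 CPM with BAY-850. The groups overlapped narrowly, with a log2 fold change of 0.30 (0.166). In SK-OV3, SMAD6 stood at 28.9, 27.5 and 24.3 CPM with DMSO and at 28.9, 27.9 and 23.8 CPM with BAY-850. The groups covered nearly the same range, and the 95% interval of the log2 fold change ran from -0.19 to 0.20.

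Promoters are shown for ID4 and ID1, the leading ID genes of PA-1 and SK-OV3, for BMP4, the leading ligand of PA-1, and for BAMBI, which was higher in SK-OV3 with BAY-850. RefSeq's table for GRCh38.p14 held starts for 7 of the 10 genes, and NOG, BMP2 and BMP7 are only named. The window read was the 250 bases before a start, and printed are the bases of it that lie in no annotated exon. Capitals mark GGCGCC, a GC-rich element to which SMADs of the BMP branch are known to bind, and CAGAC, the SMAD box, each searched on both strands, so that CAGAC on the other strand reads GTCTG. The motifs can share an end base.
ID1 (chr20:31605039-31605282, forward strand): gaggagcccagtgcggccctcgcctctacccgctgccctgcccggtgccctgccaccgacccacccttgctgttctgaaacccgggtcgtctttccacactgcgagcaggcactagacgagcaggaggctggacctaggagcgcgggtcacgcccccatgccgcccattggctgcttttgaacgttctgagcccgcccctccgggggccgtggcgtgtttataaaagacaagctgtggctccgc
ID4 (chr6:19837120-19837369, forward strand): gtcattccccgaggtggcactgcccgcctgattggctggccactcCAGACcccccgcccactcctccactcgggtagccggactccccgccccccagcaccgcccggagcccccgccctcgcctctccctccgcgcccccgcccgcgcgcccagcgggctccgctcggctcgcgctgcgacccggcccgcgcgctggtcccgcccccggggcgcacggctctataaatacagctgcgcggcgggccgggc
BAMBI (chr10:28677271-28677341, forward strand): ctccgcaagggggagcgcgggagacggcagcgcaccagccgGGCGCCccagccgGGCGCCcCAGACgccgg
BMP4, the first of its starts in the table (chr14:53955051-53955300, reverse strand): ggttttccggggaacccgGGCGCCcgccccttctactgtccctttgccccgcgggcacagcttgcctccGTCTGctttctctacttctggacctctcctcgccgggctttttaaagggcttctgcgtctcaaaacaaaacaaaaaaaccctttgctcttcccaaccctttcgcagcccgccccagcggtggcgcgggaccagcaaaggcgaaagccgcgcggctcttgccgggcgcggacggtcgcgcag
GGCGCC was found 3 times in the whole BAMBI window, of which 71 bases are printed, and at 232 bases before the first BMP4 start, but not in the ID1, ID2, ID3, ID4 or SMAD6 windows. CAGAC was found at 205 bases before the ID4 start, at 147 bases before the ID3 start, 2 times in the BAMBI window, and at 181 and 46 bases before 2 of the BMP4 starts. Of 35114 windows of this length, 16.4% held GGCGCC and 38.0% held CAGAC. A match in these letters is not a measured binding site, and ID genes are also controlled from elements outside this window.

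With BAY-850, the largest changes among the ID genes were the higher levels of ID2 and ID3 in SK-OV3. By libraries that did not overlap, ID4 was also higher in SK-OV3, and ID3 and ID4 were lower in PA-1 by small margins. In SK-OV3 the log2 fold change of ID1, at 0.21, was larger than that of ID4, at 0.12, although the ID1 groups overlapped. ID1 (chr20:31605283-31606515, forward strand) stood at 102, 93.1 and 91.1 CPM in PA-1 with DMSO and at 79.6, 83.7 and 93.8 CPM with BAY-850. The groups overlapped, with a log2 fold change of -0.15 (0.0704). In SK-OV3, ID1 stood at 362, 330.3 and 325 CPM with DMSO and at 409.8, 408 and 352 CPM with BAY-850. The lowest BAY-850 library, replicate 3, lay within the DMSO range, and the log2 fold change was 0.21 (0.0631) with it and 0.27 without it.

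ID2 (chr2:8678845-8684453, forward strand) stood at 46.2, 48.9 and 46.3 CPM in PA-1 with DMSO and at 47.9, 51.0 and 54.8 CPM with BAY-850. The groups overlapped, with a log2 fold change of 0.12 (0.0676). In SK-OV3, ID2 stood at 53.9, 52.0 and 53.6 CPM with DMSO and at 82.0, 80.3 and 91.8 CPM with BAY-850. The groups were far apart, with means of 53.2 ± 1.03 and 84.7 ± 6.18 CPM (SD, n = 3). The log2 fold change was 0.69 (0.0726), and 0.61 without BAY-850 replicate 3, the highest library.

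ID3 (chr1:23557918-23559794, reverse strand) stood at 37.8, 34.7 and 37.0 CPM in PA-1 with DMSO and at 28.9, 29.2 and 34.7 CPM with BAY-850. The 2 groups just failed to overlap at 34.7 CPM, and the log2 fold change was -0.24 (0.0814). In SK-OV3, ID3 stood at 82.3, 74.7 and 72.2 CPM with DMSO and at 124, 122 and 124 CPM with BAY-850. The means were 76.4 ± 5.26 and 123 ± 1.02 CPM, with a log2 fold change of 0.70 (0.0635), and BAY-850 replicate 3 was as high as the other libraries of its group. Among the 13665 genes tested in SK-OV3 with a mean of at least 1 CPM in either group, ID3 ranked above 96.2% and ID2 above 96.0% by log2 fold change.

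ID4 (chr6:19837386-19840684, forward strand) stood at 392, 390.3 and 378 CPM in PA-1 with DMSO and at 368, 349.5 and 369.8 CPM with BAY-850. The BAY-850 libraries were lower by a margin near the spread within a group, with a log2 fold change of -0.09 (0.0516). In SK-OV3, ID4 stood at 147, 151 and 152 CPM with DMSO and at 161, 169.9 and 154 CPM with BAY-850. The BAY-850 libraries were slightly higher, with a log2 fold change of 0.12 (0.0507). Annotated antisense genes overlap ID2 and ID4, with the same limit as for BMP7, and an intronic gene on the same strand lies within SMAD6.

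Summed over the 4 ID genes per kilobase, the level was 293 ± 7.44 CPM per kb (SD, n = 3) in PA-1 with DMSO and 273 ± 12.6 with BAY-850, and 425 ± 19.8 in SK-OV3 with DMSO and 523 ± 26.4 with BAY-850. In PA-1 with DMSO and BAY-850, in this order, the shares of this sum were, for ID4, 56.2 ± 0.732% and 56.7 ± 1.94%, for ID1, 26.3 ± 0.905% and 25.5 ± 1.18%, for ID3, 9.95 ± 0.425% and 9.04 ± 0.540%, and for ID2, 7.50 ± 0.324% and 8.77 ± 0.342%. The ID2 share was thus higher with BAY-850 by more than its spread, whereas the ID1 and ID4 shares differed by less than the larger SD of their 2 groups. In SK-OV3, ID3 went from 14.4 ± 0.330% to 18.9 ± 1.04% and ID2 from 5.84 ± 0.232% to 7.59 ± 0.959%, while ID1 went from 64.7 ± 0.835% to 60.4 ± 2.15% and ID4 from 15.1 ± 0.937% to 13.2 ± 0.397%.

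Of the 10 genes in PA-1, 5 had BAY-850 and DMSO libraries that did not overlap, NOG and BMP7 higher and BMP4, ID3 and ID4 lower, where the share over 15212 genes tested was 27.5%. In SK-OV3, 6 of the 9 genes that could be fitted did not overlap, BMP2, BAMBI, ID2, ID3 and ID4 higher and NOG lower, where the share over 15348 genes tested was 38.6%. An edgeR adjusted p under 0.05 was reached by 7.13% of all genes for the PA-1 response, by 20.4% for the SK-OV3 response and by 14.5% for the difference between the lines. Since the 10 genes were picked with such results known, nothing is read from these counts. The difference between the 2 responses, taken as the log2 response of PA-1 minus that of SK-OV3 from a fit of all 12 libraries, was 2.54 (standard error 0.519) for NOG and ranged from 1.99 when SK-OV3's BAY-850 replicate 3 was left out to 2.94 when its BAY-850 replicate 2 was. It was -0.93 (0.105) for ID3, -0.64 (0.124) for BAMBI, -0.56 (0.230) for BMP2, -0.55 (0.0951) for ID2, -0.35 (0.106) for ID1 and -0.20 (0.0671) for ID4. SMAD6 differed by 0.30 (0.181), BMP4 by 0.46 (0.359) and BMP7 by 0.95 (0.691), each with a standard error that is large beside the value. BMP7 had 5 to 10 counts with DMSO and 0 to 11 with BAY-850 in SK-OV3, too few for the fit of that line. It passed the filter on low counts here through its PA-1 libraries. Single SK-OV3 libraries moved the values of BMP4 and BMP7 in both directions. BMP4 came to 0.08 without BAY-850 replicate 3, 0.25 without DMSO replicate 2 and 0.85 without BAY-850 replicate 1, and BMP7 to 0.28 without BAY-850 replicate 3 and 2.05 without BAY-850 replicate 2.

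Genes with a pattern like that of NOG were sought over the 12 libraries, by the Pearson correlation of log2 CPM (prior count of 2) among 14092 genes. The 5 most alike were EIF3B at 0.987, a translation initiation factor subunit, MED16 at 0.986, a Mediator subunit, GPR146 at 0.981, an orphan receptor, FSCN1 at 0.980, an actin bundling protein, and TKT at 0.978, an enzyme of the pentose phosphate pathway. Mean levels in PA-1 with DMSO, PA-1 with BAY-850, SK-OV3 with DMSO and SK-OV3 with BAY-850 were 8.20, 29.5, 0.662 and 0.915 CPM for GPR146 and 225, 267, 169 and 149 CPM for EIF3B. The 12 points fall into 4 groups of 3 and share library depth and line, so the correlations only describe the likeness of the profiles.

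To see how the rest of the pathway behaved, 70 further genes of the BMP pathway were tested in the same quasi-likelihood fits of edgeR. They were listed by role from general knowledge, when earlier results of these data on other genes were known. P-values were adjusted over every gene tested by the method of Benjamini and Hochberg. In PA-1, 58 of the 70 passed the filter on low counts, and 4 rose and 2 fell with BAY-850 at an adjusted p under 0.05, against 4.65% of all genes tested that rose and 2.48% that fell. The median log2 fold change of the 58 was 0.02 and that of all genes was -0.0019. When libraries were scaled by their size only, 235 of all genes rose and 231 fell in PA-1, in place of 707 and 378. Of the 6 pathway genes called, 3 were SMADs or intracellular regulators. SMAD7, an inhibitory SMAD related to SMAD6, stood at 27.4, 24.8 and 32.1 CPM with DMSO and at 45.1, 42.6 and 46.1 CPM with BAY-850. It rose by a log2 fold change of 0.67 (standard error 0.0874, edgeR adjusted p = 0.000284), and it was called in all 14 alternative settings. SKI, a SMAD co-repressor, rose by 0.32 (0.0647, edgeR adjusted p = 0.00896) and its relative SKIL fell by 0.20 on the log2 scale (0.0552, edgeR adjusted p = 0.0444).

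Among the other secreted BMP binding proteins in PA-1, FST (follistatin, which binds activins and some BMPs) rose from 131 ± 2.48 to 154 ± 5.92 CPM (SD, n = 3), or by 0.23 on the log2 scale (0.0555, edgeR adjusted p = 0.0206). GREM1, gremlin, a BMP antagonist of the same broad class as noggin, fell by 0.22 on the log2 scale (0.0585, edgeR adjusted p = 0.0386), from 111 ± 4.72 to 95.3 ± 3.41 CPM. HAND1, a transcription factor gene under 1 CPM that was named after its value was seen, went from 2 to 13 counts with DMSO to 23 to 51 counts with BAY-850. It is counted among the genes that rose. However, it passed the filter on low counts through its BAY-850 libraries, so no p-value is given. No ligand, receptor or ID partner on the lists passed in PA-1. The calls of GREM1 and SKIL were lost without DMSO replicate 1, 2 or 3 or BAY-850 replicate 1 or 2, with GREM1 also lost without BAY-850 replicate 3, and those of FST and SKI were lost without DMSO replicate 1 or 2 or BAY-850 replicate 2. All 4 were also lost when libraries were scaled by their size only, and those of GREM1, SKIL and SKI when the trend on GC content was removed. Of 14 alternative settings, GREM1 was called in 4 and SKIL in 6, and the log2 fold change of SKIL ran from -0.24 to -0.01.

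In SK-OV3, 48 of the 70 genes could be tested, and 6 rose and 8 fell, against 10.8% and 9.56% of all genes tested. The median log2 fold change was 0.02, against -0.01 over all genes. By role, 1 of 4 ligands, 4 of 9 receptors, 5 of 11 secreted binding proteins and proteases, 1 of 14 SMADs and intracellular regulators, 3 of 7 other targets and 0 of 3 ID partners passed. Without BAY-850 replicate 3, 8 rose and 9 fell.

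The ligand was GDF6, which stood at 12.1, 11.6 and 12.9 CPM with DMSO and at 5.41, 5.12 and 6.20 CPM with BAY-850 in SK-OV3, and fell by 1.11 on the log2 scale (standard error 0.141, edgeR adjusted p = 0.000253). Of the receptors, the type I receptor BMPR1B fell by 0.68 (0.113, edgeR adjusted p = 0.00154) and the type II receptor BMPR2 by 0.22 (0.0595, edgeR adjusted p = 0.0241). The type I receptor ACVR1 rose by 0.31 (0.0854, edgeR adjusted p = 0.0245) and the type II receptor ACVR2B rose by 0.45 (0.118, edgeR adjusted p = 0.0197). The receptors thus moved in both directions in SK-OV3.

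Of the secreted proteins in SK-OV3, CHRD (chordin, a BMP antagonist) rose by 1.22 (0.289, edgeR adjusted p = 0.0117), from 2.07 ± 0.674 to 4.79 ± 0.740 CPM (SD, n = 3), and BMP1, a protease that cuts chordin, fell by 0.66 (0.0749, edgeR adjusted p = 0.000113), from 81.5 ± 2.09 to 51.2 ± 5.60 CPM. FSTL1, a follistatin-like protein, fell by 0.42 on the log2 scale (0.0454, edgeR adjusted p = 8.67e-05), and TWSG1, which binds BMPs together with chordin, fell by 0.33 (0.0647, edgeR adjusted p = 0.00398). GREM1, named here after its value was seen because it lay under 1 CPM, went from 14 to 29 counts with DMSO to 0 to 3 counts with BAY-850. It is counted among the genes that fell. However, it passed the filter on low counts through its DMSO libraries, so no p-value is given. The regulator TOB1, which can restrain BMP SMADs, fell by 0.38 (0.0755, edgeR adjusted p = 0.00475).

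The other genes described as BMP targets that passed in SK-OV3 all rose. HEY1, a transcriptional repressor that is also a Notch target, stood at 5.89, 7.20 and 6.30 CPM with DMSO and at 12.5, 10.8 and 13.7 CPM with BAY-850, and rose by 0.95 (0.149, edgeR adjusted p = 0.00108). ATOH8, a helix-loop-helix factor, rose by 1.07 (0.268, edgeR adjusted p = 0.0155), from 1.58 ± 0.179 to 3.30 ± 0.134 CPM (SD, n = 3), and RUNX2, a regulator of bone formation, rose by 0.41 (0.0887, edgeR adjusted p = 0.00766). MSX1, MSX2, GATA2 and TBX2, the remaining targets tested in this line, did not pass. The calls of HEY1 and RUNX2 held in all 14 alternative settings, and that of ATOH8 was lost in 4 of them, which were the fit of all 12 libraries and the fits without DMSO replicate 2, DMSO replicate 3 or BAY-850 replicate 2. The calls of ACVR1, ACVR2B and BMPR2 were lost in 4, 4 and 5 settings, each of which left out a DMSO library or BAY-850 replicate 1 or 2, apart from scaling by library size only for BMPR2.

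Whether the 2 lines responded differently was tested by the interaction of treatment and line over all 12 libraries. Of 60 pathway genes tested, 13 had a more positive response in PA-1 and 5 a more positive response in SK-OV3, against 7.77% and 6.7% of all 16830 genes, with a median difference of -0.01, against 0.02 over all genes. Secreted binding proteins and proteases made up 7 of the 13, and SMADs and intracellular regulators 4 of them. The 7 include CHRDL1, GREM1 and SOST, which had at most 9, 29 and 3 counts per library in SK-OV3. Genes measured at several CPM in all 4 groups included HEY1, at -1.11 (standard error 0.207, edgeR adjusted p = 0.00231), BMP1, at 0.86 (0.138, edgeR adjusted p = 0.000733), TOB1, at 0.74 (0.138, edgeR adjusted p = 0.00226), SMAD7, at 0.65 (0.122, edgeR adjusted p = 0.00234), TWSG1, at 0.50 (0.0890, edgeR adjusted p = 0.00158) and FSTL1, at 0.49 (0.0644, edgeR adjusted p = 0.000138). SMAD7 in SK-OV3 stood at 60.7 ± 2.47 CPM with the vehicle and 61.5 ± 4.54 CPM with the inhibitor (SD, n = 3), above its level in either group of PA-1. ZNF423, a DNA-binding partner of BMP SMADs, differed by 1.40 (0.227, edgeR adjusted p = 0.000799). It stood at 57.9 ± 2.79 and 66.8 ± 2.25 CPM in PA-1 and at 1.75 ± 0.476 and 0.755 ± 0.170 CPM in SK-OV3, with DMSO and BAY-850 in this order.

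**Figure D4:**
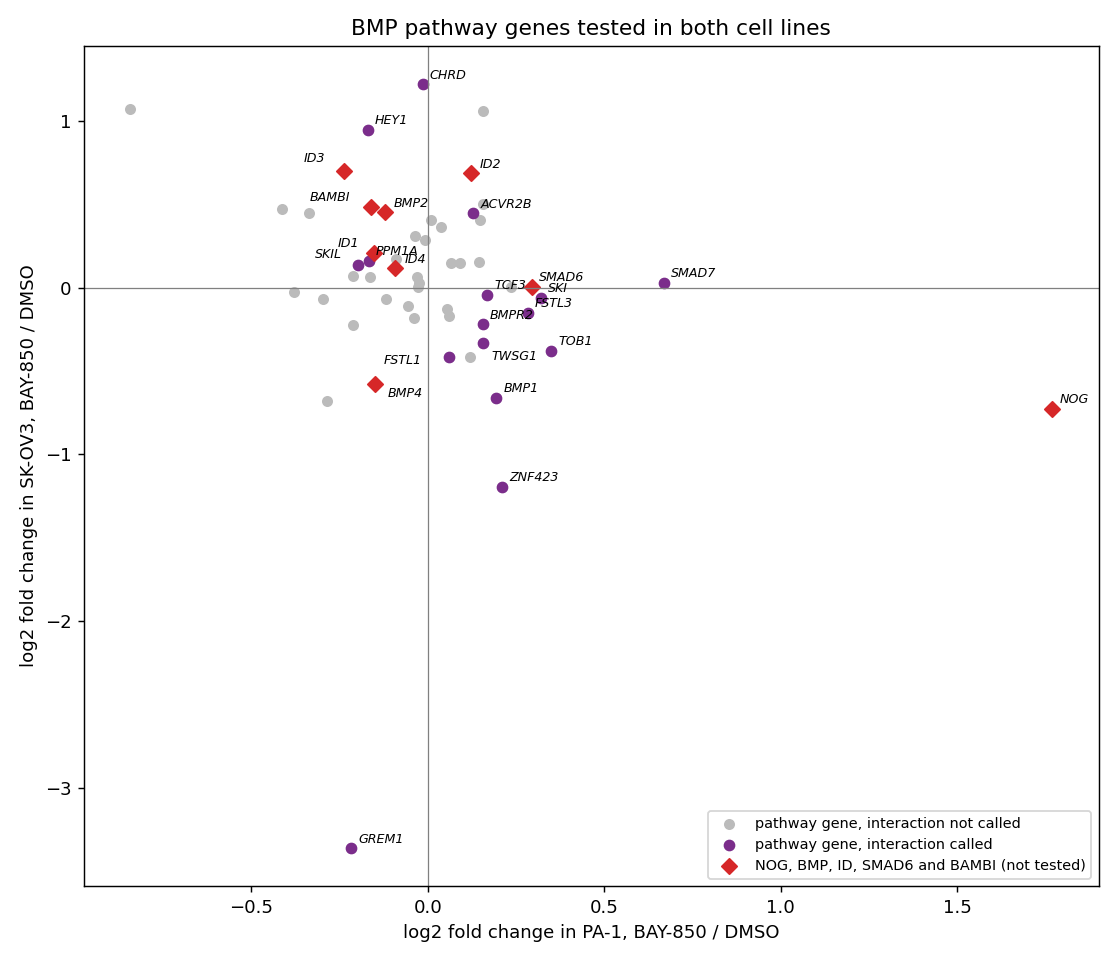
Log2 fold change of BAY-850 over DMSO in PA-1 (horizontal axis) and SK-OV3 (vertical axis) for the 55 genes fitted in both lines. Purple circles are the 16 pathway genes drawn whose interaction passed, grey circles are the other pathway genes, and red diamonds are 9 of the 10 genes picked by name, which were not tested. NOG lies alone at the far right, and GREM1 lies lowest on a fold change that rests on at most 29 counts per SK-OV3 library.

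With DMSO alone, 50 of 59 pathway genes tested differed between the lines, 27 higher in PA-1 and 23 higher in SK-OV3, against 40.2% and 40.1% of all genes tested, or 80.3% in both directions, so the share was near that of all genes. The median log2 fold change was 0.09, against -0.0019 over all genes. The secreted antagonists split between the lines. PA-1 carried FST at 131 ± 2.48 CPM (SD, n = 3) and GREM1 at 111 ± 4.72 CPM, where SK-OV3 had 0.153 ± 0.134 and 0.503 ± 0.230 CPM, and CER1 at 6.75 ± 0.804 CPM, which had 0 counts in SK-OV3. SK-OV3 carried NBL1 at 134 ± 8.64 CPM and FSTL3 at 237 ± 16.0 CPM, against 1.15 ± 0.267 and 8.17 ± 0.789 CPM in PA-1. NBL1, also called DAN, and CER1 belong to a family of cysteine-rich BMP antagonists that includes gremlin.

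Of the other layers with DMSO, 6 receptors and co-receptors were higher in PA-1 and 2 in SK-OV3. ACVR2B was higher in PA-1 by 3.12 on the log2 scale (0.0739, edgeR adjusted p = 8.72e-13) and BMPR2 was higher in SK-OV3, with a difference of -1.29 (0.0676, edgeR adjusted p = 1.73e-09). Of the SMADs and intracellular regulators, 9 of 14 were higher in SK-OV3, among them SMAD7 at -1.11 (0.0898, edgeR adjusted p = 1.27e-07), SMURF2, a ubiquitin ligase for SMADs and receptors, at -2.87 (0.0752, edgeR adjusted p = 2.17e-12), and SMAD1 at -0.90 (0.110, edgeR adjusted p = 7.39e-06). Among the ID partners, TCF4 stood at 35.6 ± 3.25 CPM in PA-1 and 1.06 ± 0.387 CPM in SK-OV3 (SD, n = 3), and TCF12 at 151 ± 7.82 and 79.3 ± 9.38 CPM, whereas TCF3 did not pass, at 159 ± 1.05 and 157 ± 5.58 CPM.

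The other genes higher in PA-1 with DMSO at a mean of at least 1 CPM were the ligands BMP8A and BMP8B, the receptors and co-receptors ACVR1, ACVRL1, ACVR2A, ENG and RGMA, the binding proteins CHRD, CHRDL1, SOST and KCP, the intracellular regulators SMURF1 and ZNF423, and the targets MSX2, DLX5 and HEY1. Those higher in SK-OV3 were the ligand GDF6, the receptor BMPR1B, the secreted proteins FSTL1, TWSG1 and CRIM1, the proteases BMP1 and TLL1, the regulators SMAD9, SKI, TOB1, TOB2, PPM1A and LEMD3, and the targets ATOH8, MSX1, TBX2 and RUNX2. GDF6, the ligand that fell in SK-OV3 with BAY-850, stood at 0.318 CPM in PA-1 and 12.2 CPM in SK-OV3, and BMP1 at 12.5 and 81.5 CPM.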

How the data were processed

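RNA of the 12 cultures was sequenced on an Illumina HiSeq instrument. The study's methods describe oligo-dT purified mRNA and strand-specific libraries, whereas the deposited design text names ribosomal RNA depletion, and ribosomal RNA genes took 7.94% to 16.9% of the counts. The authors deposited RSEM expected counts per gene symbol, without normalization. The submitters' processing notes name Bowtie2 2.1.0, RSEM 1.2.15 and hg38, and the annotation is not given in the sources used here. RSEM divides reads that fit several genes.

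Expected counts were rounded to whole numbers and scaled by TMM in edgeR 4.0.16 under R 4.3.3. Low counts were removed by filterByExpr with the groups given. Comparisons used the quasi-likelihood test without a replicate block, within each line (6 libraries), between the lines with DMSO, and as an interaction over 12 libraries, with Benjamini-Hochberg adjustment over all genes tested and a threshold of 0.05. The standard error was the log2 fold change divided by the square root of F. Levels are CPM with TMM factors of all 12 libraries, so that the ratio of 2 means can differ slightly from a fitted fold change. The 10 genes and the lists were chosen with earlier results of these data known. Named were the 10 genes, every listed pathway gene called at a mean of at least 1 CPM in a compared group and the 5 genes most like NOG. Exon lengths and positions come from GENCODE release 29, matched by symbol for 23899 genes.

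The fits were tested on simulated counts with 2-fold changes. Counts were drawn from a negative binomial with each fit's own dispersions and with gene means pooled over libraries, within each line for the interaction. Features of single libraries, such as the many genes at 0 in BAY-850 replicate 3 of SK-OV3, were not copied. The shares below therefore need not hold for the real counts. The test found 150 of 195 changed genes in PA-1, 144 of 196 in SK-OV3, 119 of 197 for the interaction and 149 of 196 between the lines. In this order, there were 9, 9, 12 and 8 false calls, which were 5.66%, 5.88%, 9.16% and 5.10% of the calls. The false share was thus highest for the interaction. Counts of replicates in a group differed beyond sampling noise, with a chi-square statistic of 4.96 to 68.4 for each degree of freedom, and each library counted as 1 replicate. Total counts of 34544505 to 51840233 leave genes under 1 CPM with few counts. The smallest two-sided p that an exact permutation of 3 libraries against 3 can give is 0.1. Alternatives were RLE factors, library size only, no filter, at least 10 counts in every library, DESeq2 1.42.0, removal of each library's trend on GC content (loess span of 0.5), a replicate block, all 12 libraries in one fit, and leaving out each library.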

Additional observations from a re-analysis of the deposited data

Results flagged for a closer look

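The response to BAY-850 differed between PA-1 and SK-OV3 for 18 of the 60 pathway genes tested by the interaction term (edgeR's quasi-likelihood test, adjusted over all 16830 genes), and each is given here as the log2 response of PA-1 minus that of SK-OV3. Among secreted binding proteins and proteases, the difference was 0.49 for FSTL1, 0.45 for FSTL3 (edgeR adjusted p = 0.0144), 0.50 for TWSG1, 0.86 for BMP1 and -1.22 for CHRD (edgeR adjusted p = 0.0358). It was 5.13 for CHRDL1, 3.20 for GREM1 and 4.22 for SOST. These last 3 are counted among the 18. However, they rest on few counts in SK-OV3, at most 9 per library for CHRDL1, 29 for GREM1 and 3 for SOST. CHRDL1 and SOST passed the filter on low counts through their PA-1 libraries. No p-value is therefore given for the 3. The calls of CHRDL1 and SOST were lost without BAY-850 replicate 3 of SK-OV3. Among SMADs and intracellular regulators, it was 0.65 for SMAD7, 0.39 for SKI (edgeR adjusted p = 0.00547), -0.32 for SKIL (edgeR adjusted p = 0.00781), 0.74 for TOB1, -0.32 for PPM1A (edgeR adjusted p = 0.0328) and 1.40 for ZNF423. Among receptors, targets and ID partners, it was -0.31 for ACVR2B (edgeR adjusted p = 0.0309), 0.38 for BMPR2 (edgeR adjusted p = 0.0121), -1.11 for HEY1 and 0.22 for TCF3 (edgeR adjusted p = 0.0453). The calls of ACVR2B and TCF3 were also lost without that library. Of these, TCF3 was called in 5 of 19 alternative settings, CHRDL1 in 7 of 18, ACVR2B in 9 of 19 and SOST in 16 of 18. PPM1A was called in 10 of 19 settings and CHRD in 12 of 19. Both lost their call with the replicate block. PPM1A also lost it with the GC trend removed and without PA-1 DMSO replicate 1 or 2, any 1 of the PA-1 BAY-850 replicates, or replicate 1 of either SK-OV3 group. CHRD also lost it without replicate 2 or 3 of either PA-1 group, SK-OV3 DMSO replicate 3 or SK-OV3 BAY-850 replicate 1. FSTL3, SKI, SKIL and BMPR2 each lost their call in 1 setting. The other 8 genes were called in every setting that tested them, which were 18 for GREM1.

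NOG, ID3 and ID4 had libraries that did not overlap between treatments in either line, in opposite directions. Over all genes tested, libraries did not overlap for 27.5% in PA-1 and 38.6% in SK-OV3. The share that did so in both lines in opposite directions was not computed, so nothing is read from this pattern. The differences of NOG, ID3 and ID4 were 2.54, -0.93 and -0.20, and they were not tested, since these genes were picked with results of the data known. For NOG in SK-OV3 and ID3 in PA-1 the margin between the groups was smaller than 0.05 CPM.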

How the results depend on the processing

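Counts of called pathway genes moved most in PA-1, where they were small. Against 4 that rose and 2 that fell, scaling by library size only gave 2 and 0, the fit of all 12 libraries gave 2 and 1, removal of the GC trend gave 1 that fell, which was neither GREM1 nor SKIL, and leaving out a library gave 1 to 4 and 0 to 2. In SK-OV3, against 6 and 8, leaving out a library gave 3 to 8 and 6 to 9, with 3 that rose without DMSO replicate 3 or BAY-850 replicate 2. For the interaction, against 13 and 5, the more negative responses in PA-1 were 9 with at least 10 counts in every library, 9 with DESeq2 and 3 with the GC trend removed, and leaving out a library gave 10 to 13 and 2 to 7. Between the lines with DMSO, a minimum of 10 counts in every library, under which fewer genes were tested, gave 16 genes higher in PA-1 in place of 27, and leaving out a library gave 25 to 27 and 23 to 23. The cause of the other moves was not tested.

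Deviations of same-numbered libraries from their group means correlated between -0.0319 and 0.0440, so no shared deviation was seen by replicate number. The labels give only replicate numbers, so whether same-numbered cultures were handled together is not known. With the replicate block, PA-1 gave 4 and 0, and the interaction 12 and 2 pathway genes.

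Over all genes, PA-1 had 707 that rose and 378 that fell, which became 235 and 231 with library size only, 450 and 127 with the GC trend removed, 469 and 214 in the fit of all 12 libraries, 1038 and 588 without a filter, 1011 and 726 with DESeq2, and as few as 275 and 65 without DMSO replicate 2 or 273 and 71 without BAY-850 replicate 2. In SK-OV3, 1662 and 1468 became 993 and 788 without DMSO replicate 2, and those that fell became 859 without DMSO replicate 3. For the interaction, 1307 and 1128 became 773 and 1062 with library size only. The fold changes of the 10 genes kept their direction in every setting except SMAD6 in SK-OV3, which was near 0 and changed sign in 5 of 14.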
